A study of Mus musculus with 8 samples.

Results

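Collagen genes were examined in bone marrow-derived macrophages (BMDM) of wild type (WT) and *miR-155*-/- mice. A collagen gene was taken as any symbol made of Col, a type number, the letter a and a chain number. Only probe sets (groups of oligonucleotide probes against the same transcript) with a single symbol counted, and the brightest probe set stood for its gene. In all, 42 of the 18183 genes on the array met this rule, through 82 probe sets, and 27 of the 42 had several. *Col28a1* and *Col6a6*, which complete the 44 collagen genes of the RefSeq table, had no probe set with a single symbol.

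The study asked how IL-10 and miR-155 shape the response of inflammatory macrophages. Marrow from the femurs of C57Bl/6 mice, 2 of each genotype, was frozen, thawed and grown for 7 days in medium with 15% L929-conditioned medium. Cells were then given LPS (100 ng/ml) for 24 h, alone or after 5 min with IL-10 (20 ng/ml), which made 4 groups of 2 arrays: WT(LPS), WT(LPS + IL-10), *miR-155*-/-(LPS) and *miR-155*-/-(LPS + IL-10). Every group received LPS, so no resting level is known. The WT animals were labelled female and the *miR-155*-/- animals male, so genotype and sex cannot be told apart. Arrays of a genotype that share a replicate number are taken here as the same donor. The study's methods name the mouse donor as a block, but the labels do not state which animal each array came from, so every donor result rests on this reading of the numbers. Values are log2 intensities after RMA (background correction, quantile normalization and summary of probes), and the number of arrays limits the precision. Differences were taken within a probe set, and an array's median over all probe sets served only as a mark for dim signals, since probe sets differ in brightness for equal amounts of RNA. All 12 genes of a macrophage list, among them *Adgre1*, *Csf1r* and *Lyz2*, lay above the array's median on every array. Between 10747 and 10898 of all 18183 genes did so on a given array. The median of the macrophage list was 12.29 to 12.63.

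Collagens are triple helices of α chains that are secreted and assembled into the matrix. Fibrillar types I, III and V give connective tissue its strength, type IV forms the mesh of basement membranes, and type VI makes beaded filaments around cells. Fibroblasts, osteoblasts and marrow stromal cells are the main makers of fibrillar collagen, whereas macrophages are better known for taking up and degrading it. Type XVIII, from which endostatin is cut, is a basement membrane proteoglycan.

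Stretches just before the annotated starts of collagen genes are shown for the genes on which the results turn: a type I and a type III gene that differed most between donors, the type XVIII gene that differed between genotypes, and a type IV pair that lie head to head. They come from RefSeq on GRCm38.p6 and run 5′ to 3′ on the strand of the gene. Capitals mark the CCAAT box, the GC box (GGGCGG) or the TATA box (as TATAAA), read on either strand, and they share no bases in the stretches shown. *Col1a1* has no entry in the promoter table.

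*Col1a2*, chr6:4505488-4505617, plus strand: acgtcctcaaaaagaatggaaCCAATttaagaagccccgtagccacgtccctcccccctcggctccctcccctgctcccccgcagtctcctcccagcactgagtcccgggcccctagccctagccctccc

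*Col3a1*, chr1:45311408-45311537, plus strand: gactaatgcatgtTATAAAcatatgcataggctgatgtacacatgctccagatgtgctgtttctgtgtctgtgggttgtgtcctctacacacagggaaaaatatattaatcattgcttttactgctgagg

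*Col18a1*, outer start, chr10:77166531-77166630, minus strand: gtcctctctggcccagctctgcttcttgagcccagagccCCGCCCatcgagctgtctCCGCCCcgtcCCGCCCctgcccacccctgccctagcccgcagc

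*Col18a1*, inner start, chr10:77113706-77113805, minus strand: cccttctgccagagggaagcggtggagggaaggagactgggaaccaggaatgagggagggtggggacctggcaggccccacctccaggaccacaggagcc

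*Col4a2*, beside the start of *Col4a1*, chr8:11312765-11312794, plus strand: ggagctccCCAATttgttggcgctgccccc

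The starts of *Col4a2* (11312805, plus strand) and *Col4a1* (11312826, minus strand) lie 21 bases apart, and their promoter windows (250 bases before the start to 50 after) share 78 bases. By these starts, the stretch shown lies before that of *Col4a2* and after that of *Col4a1*. The annotated starts of *Col18a1* lie 52.8 kb apart. The RefSeq table held 36 windows for 33 of the 42 collagen genes. The letters GGGCGG, or their complement, were in 22 of the 36 collagen windows (61.1%) and in 35.7% of all 32851 windows. CCAAT was in 36.1% of the collagen windows and 37.4% of all windows, and TATAAA in 13.9% and 13.6%. Such matches describe the sequence and were not tested as sites.

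Of the 42 collagen genes, 23 exceeded the array's median (3.88 to 3.97 on the 8 arrays) on at least 1 array and 6 did so on all 8, namely *Col1a1*, *Col4a2*, *Col18a1*, *Col19a1*, *Col20a1* and *Col25a1*. The other 19 lay between 1.47 and 3.40 throughout. Among these 19 were *Col10a1* of growth plate cartilage, *Col17a1* of epithelial hemidesmosomes and *Col4a3* of the glomerular basement membrane. By class, 8 of 11 fibrillar genes, 3 of 6 type IV genes, 4 of 6 genes of beaded filaments and anchoring fibrils, and 5 of 9 fibril-associated genes reached the median on some array. Short-chain network genes did so in 1 of 3, multiplexins in 1 of 2 and transmembrane collagens in 1 of 4, and *Col26a1* did not. The summed level of the 42 genes (log2 of the added intensities) was 13.65 on both arrays of WT donor 1 and 9.18 to 10.91 on the other 6.

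**Figure D1:**
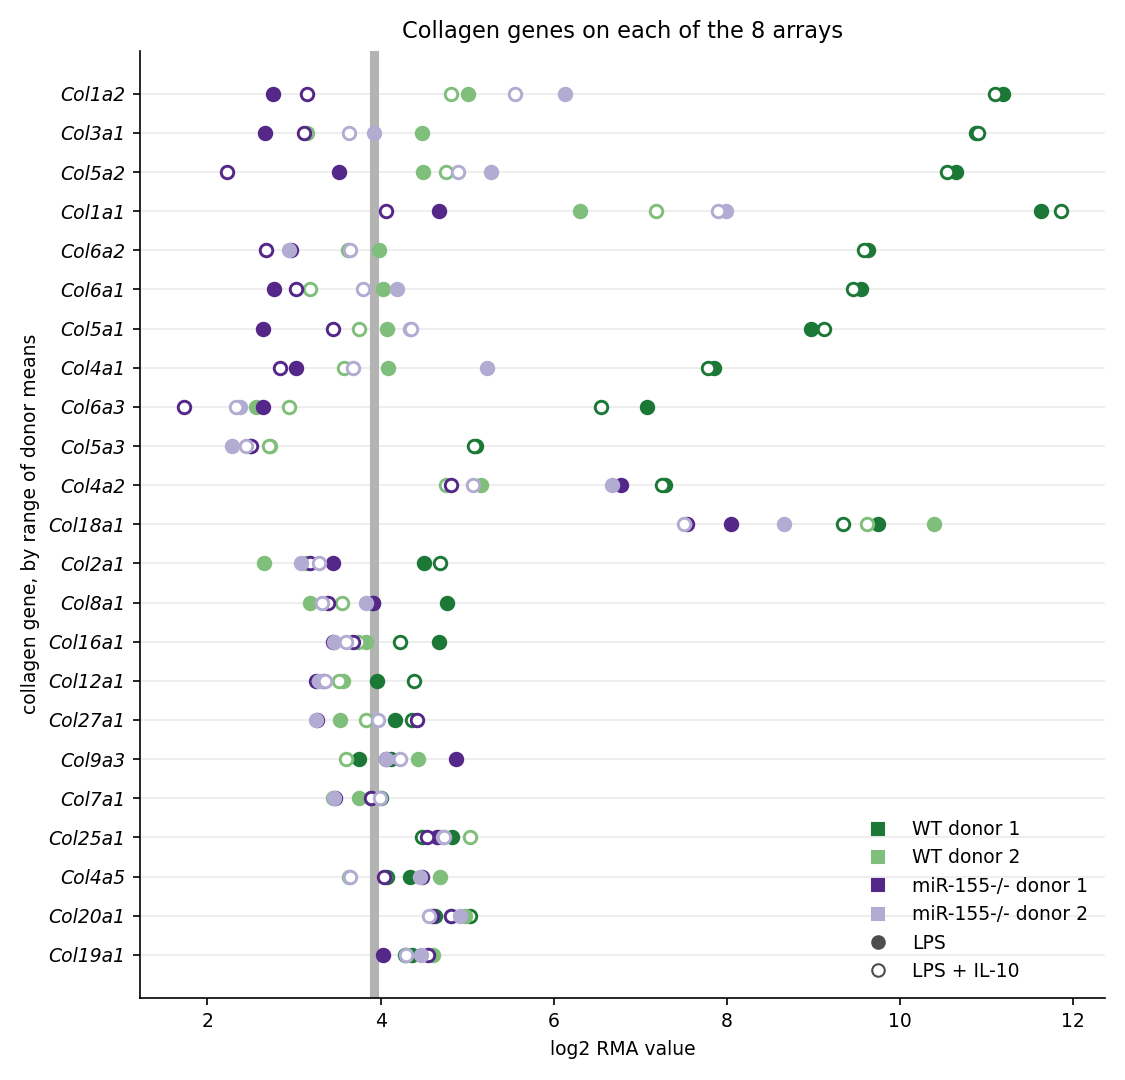
Log2 RMA values (x axis) of the 23 collagen genes that exceeded an array's median on at least 1 array, ordered by the range of their donor means. Each point is 1 array, coloured by donor, filled for LPS and open for LPS + IL-10, and the grey band spans the medians of the 8 arrays (3.88 to 3.97). Both arrays of WT donor 1 lie far to the right for the genes at the top, such as *Col1a2* at 11.20 and 11.11.

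The cultures of WT donor 1 stood apart in most fibrillar chains and in part of the type IV and type VI chains. *Col1a1*, which encodes the main chain of type I collagen, was at 11.63 with LPS and 11.86 with LPS + IL-10 in WT donor 1, at 6.30 and 7.18 in WT donor 2, at 4.67 and 4.06 in *miR-155*-/- donor 1 and at 8.00 and 7.90 in *miR-155*-/- donor 2. *Col1a2*, its partner chain, was in the same order at 11.20 and 11.11, 5.01 and 4.81, 2.76 and 3.15, and 6.14 and 5.56. For both genes the arrays of WT donor 1 were highest, followed by those of *miR-155*-/- donor 2, and the 4 donors did not overlap. *Col3a1*, the homotrimeric type III chain, was at 10.88 and 10.90 in WT donor 1 and between 2.67 and 4.48 on the other 6 arrays. *Col5a2* (10.65 and 10.55, against 2.23 to 5.27) and *Col5a1* (8.98 and 9.13, against 2.64 to 4.36), whose type V chains start collagen fibrils, gave the same picture.

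Of the type VI chains, *Col6a1*, *Col6a2* and *Col6a3* gave the same picture, and *Col6a4* and *Col6a5* were dim on all 8 arrays (at most 3.16) with the highest array in WT donor 2. *Col6a1* was at 9.55 and 9.46 in WT donor 1 and at 2.76 to 4.19 elsewhere. *Col6a2* was at 9.64 and 9.59 against 2.67 to 3.98, and *Col6a3*, the longest of the 3 chains, at 7.08 and 6.55 against 1.73 to 2.94. In the basement membrane class, *Col4a1* was at 7.85 and 7.79 in WT donor 1 and at 2.84 to 5.23 elsewhere, a gap of over 1 log2 unit in each of these 4 genes. *Col4a2*, which lies head to head with *Col4a1* as shown above, came closer, at 7.29 and 7.25 in WT donor 1 and up to 6.78 on the other arrays.

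Between the WT donors, 13 of the 42 collagen genes passed the test (limma, adjusted p under 0.05), all 13 higher in donor 1, where 3.91% of all 18183 genes passed and 3.53% did so as higher. By class these were 8 of 11 fibrillar genes, 2 of 6 type IV genes and 3 of 6 genes of beaded filaments and anchoring fibrils. The 13 were *Col1a1*, *Col1a2*, *Col2a1*, *Col3a1*, *Col5a1*, *Col5a2*, *Col5a3*, *Col11a1*, *Col4a1*, *Col4a2*, *Col6a1*, *Col6a2* and *Col6a3*. The differences ran from 1.08 for *Col11a1*, a minor fibrillar chain, to 7.08 (SE 0.33, adjusted p = 5.93e-05) for *Col3a1*, with a median of 5.01. Where the lower donor lay near or below the array's median, as for *Col3a1* in WT donor 2 (4.48 and 3.15), the size of the difference is uncertain. *Col1a2* differed by 6.24 (SE 0.23, adjusted p = 2.71e-05), *Col5a2* by 5.98, *Col6a1* by 5.90, *Col6a2* by 5.81, *Col5a1* by 5.14, *Col1a1* by 5.01, *Col6a3* by 4.07, *Col4a1* by 3.99, *Col5a3* by 2.38, *Col4a2* by 2.31 and *Col2a1* by 1.70. The other 29 collagens lay between -0.60 and 1.09. This test fits IL-10 as a term, and its error comes from how far the donor differences vary between both treatments. The p-values thus measure the spread between arrays of the same animal and not the spread between animals. A WT array left out puts the WT difference on 1 treatment, with no error estimate from WT arrays. A *miR-155*-/- array left out does not change the WT difference. With each array left out, 12 or 13 collagens stayed called, and only *Col11a1* lost the call, in 4 of the 8 cases with an adjusted p up to 0.0788.

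**Figure D2:**
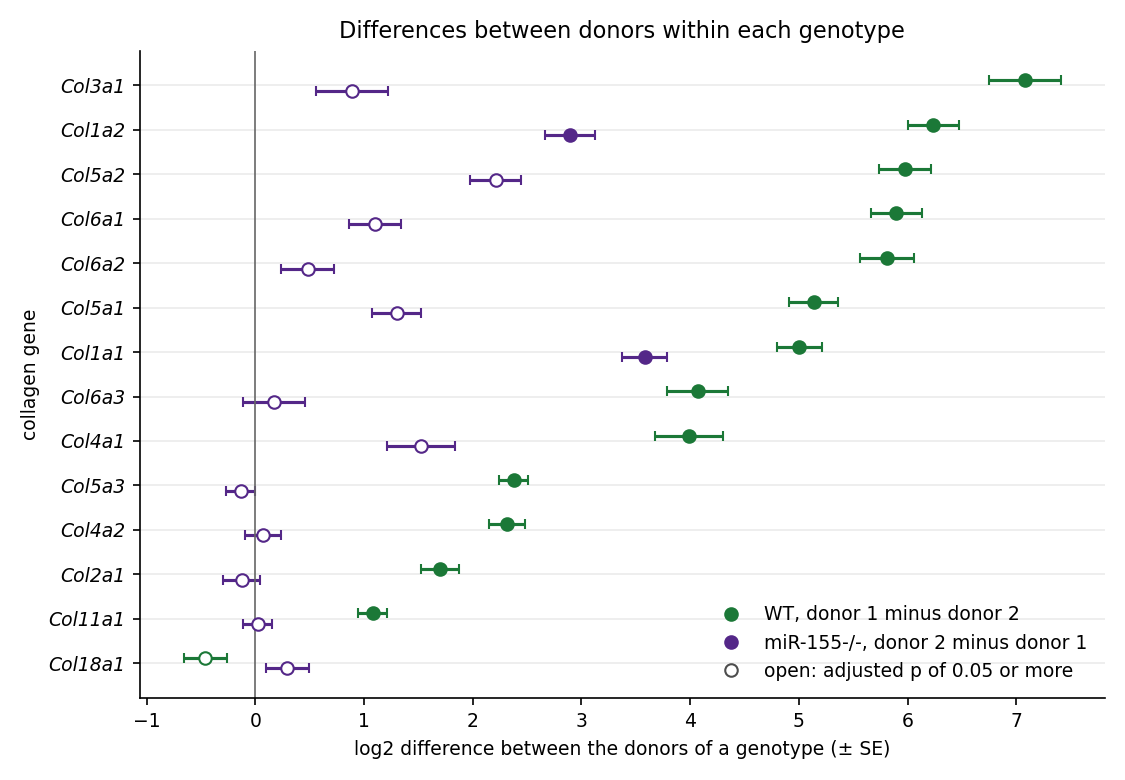
Log2 differences (x axis, bars ± SE) between the 2 donors of a genotype for the 13 collagen genes called between WT donors and for *Col18a1*. Green points are WT donor 1 minus donor 2, purple points *miR-155*-/- donor 2 minus donor 1, and open points did not pass the test; the green points of 13 genes lie between 1.08 and 7.08, and *Col1a1* and *Col1a2* are the filled purple points.

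The *miR-155*-/- donors differed from each other as well, in fewer collagens. Of 42, 2 were called, where 0.0605% of all genes (11 of 18183) were. *Col1a1* was higher in donor 2 than in donor 1 by 3.58 (12-fold, SE 0.21, adjusted p = 0.0117) and *Col1a2* by 2.89 (SE 0.23, adjusted p = 0.0319). The fit was donor 1 minus donor 2, hence logFC of -3.58 and -2.89. *Col5a2* (-2.21, adjusted p = 0.0878), *Col4a1* (-1.52, adjusted p = 0.385), *Col5a1* (-1.30, adjusted p = 0.287) and *Col6a1* (-1.10, adjusted p = 0.393) lay the same way and did not pass. Of the 13 genes called between WT donors, 11 had the higher mean in *miR-155*-/- donor 2 and 2 the lower. Of all 18183 genes, 9124 had the higher mean there. Some of the 11 differed little, such as *Col11a1* (-0.02), *Col4a2* (-0.07) and *Col6a3* (-0.17). Leaving out 1 array ended the call of *Col1a1* in 4 of 8 cases (adjusted p up to 0.125) and that of *Col1a2* in each of the 8 (0.0836 to 0.149).

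The order of the 4 donors was not the same for every collagen. WT donor 1 had the highest mean for each of the 13 genes. For 6 of them *miR-155*-/- donor 2 came next, then WT donor 2, then *miR-155*-/- donor 1, and for 4 both WT donors came before *miR-155*-/- donor 2 and then donor 1. Over all 42 genes, both arrays of WT donor 1 lay above the other 6 in 16 (38.1%, against 7.12% of all genes), and by at least 1 log2 unit in 11 (26.2%, against 2.41%). No collagen stood out by 1 log2 unit in any other donor, and hardly any gene did. The shares of all genes were 0.0440% for WT donor 2, 0.00550% for *miR-155*-/- donor 1 and 0.0110% for *miR-155*-/- donor 2. The donor within a genotype held a median of 54.9% of the variation of a collagen gene over the 8 arrays, genotype 18.4% and IL-10 1.56%, and for all genes these medians were 23.3%, 15.1% and 12.1%. Donor was the largest share in 26 of the 42 collagens (61.9%) and in 32.6% of all genes. The donor share joins the differences within both genotypes, while genotype and IL-10 each hold a single difference, which favours donor. A single donor that stands apart also adds to the genotype share, and *Col1a1* had 65.8% for donor and 33.1% for genotype.

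Genes that act on collagen were high in the same cultures. *Serpinh1*, the collagen chaperone HSP47, was at 9.02 and 9.10 in WT donor 1 and between 2.12 and 3.01 on the other 6 arrays, a difference between WT donors of 6.37 (adjusted p = 1.24e-05). *Sparc*, a collagen-binding matrix protein, was at 11.58 and 11.45 in WT donor 1, 5.78 and 5.54 in WT donor 2, 3.79 and 3.72 in *miR-155*-/- donor 1 and 6.62 and 6.40 in *miR-155*-/- donor 2, which is the order of *Col1a1* and *Col1a2*. Of 30 measured genes for collagen processing, 14 were higher in WT donor 1 and 0 lower, where 3.53% of all genes were higher. They included *Pcolce* (5.43), the enhancer of propeptide cleavage, *Loxl1* (3.60), a cross-linking oxidase, *Plod2* (3.03), a lysyl hydroxylase, *P4ha3* (2.51), a prolyl hydroxylase, and *Bmp1* (1.06), the propeptide proteinase. Some general enzymes of the endoplasmic reticulum in this list differed far less between arrays. *P4hb* was slightly higher in WT donor 1, at 12.40 to 12.46 against 12.16 to 12.39 elsewhere. So was *P4ha1*, at 10.33 to 10.53 against 10.10 to 10.28. *Colgalt1* lay at 9.56 to 9.82 over all 8 arrays, and its values in WT donor 1 were within the range of the others.

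The processing list showed 0 calls in either direction for IL-10 or genotype, and between the *miR-155*-/- donors *Sparc* alone was called (higher in donor 2, logFC -2.76, adjusted p = 0.00964, and 0.0290 to 0.149 when any 1 array was omitted). *Lox*, which cross-links collagen, was at 11.68 with LPS and 11.47 with LPS + IL-10 in WT donor 1 and at 10.76 and 7.55 in WT donor 2. In *miR-155*-/- donors it was at 11.68 and 10.48, and at 11.72 and 9.89. It was thus lower with IL-10 in all 4 donors, by amounts that did not pass the test.

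Markers of other cells were read beside the collagens. Of 24 fibroblast and stromal genes, 17 were higher in WT donor 1 than in WT donor 2 and 0 lower (3.53% of all genes were higher), with a median difference of 3.78 over the list, against -0.06 over all genes. The summed level of the list (log2 of the added intensities) was 14.50 and 14.55 in WT donor 1 and 12.34 to 12.82 on the other 6 arrays. *Postn*, periostin of fibroblasts and bone, was at 10.06 and 10.13 in WT donor 1 and at 2.26 to 4.51 elsewhere. *Prrx1*, a mesenchymal transcription factor, was at 9.27 and 9.26 against 2.32 to 3.49, and *Cxcl12*, the chemokine of marrow stroma, at 8.90 and 8.79 against 2.06 to 3.49. *Pdgfra* was at 7.49 and 7.57 against 2.05 to 3.30, *Cdh11* at 9.73 and 9.70 against 2.71 to 4.91, and *Ccn2* at 11.49 and 11.51 against 4.37 to 7.54. Among the 7 genes of the list that were not called were *Dpt* and *Mfap4*, which stayed at 1.26 to 2.12 on all 8 arrays. Between the *miR-155*-/- donors, *Ccn2* (-2.70) and *Cdh11* (-1.92) of this list were called, higher in donor 2 as for *Col1a1*, and the call ended with 4 and 8 of the 8 arrays left out in turn (adjusted p reaching 0.149 and 0.289). *Lum*, lumican, was the single gene of the list called between genotypes with LPS (higher in *miR-155*-/- cells by 2.57, adjusted p = 0.0125, and 0.0215 to 0.109 with 1 array left out).

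The osteoblast and chondrocyte list (11 genes) had 3 calls between WT donors, all higher in donor 1 like 3.53% of all genes: *Alpl* (2.98), *Sox9* (1.97) and *Sp7* (1.63). *Ibsp* and *Acan* lay below the array's median on all 8 arrays. None of 11 endothelial genes was called between donors, and neither were the 4 adipocyte genes, of which *Adipoq* lay at 1.89 to 2.22. The 12 macrophage genes gave 0 calls between the donors of either genotype (limma, adjusted p under 0.05; unadjusted p under 0.05 in 0 genes between WT donors and 2 between *miR-155*-/- donors). In the other comparisons *Mrc1*, the mannose receptor, was lower in *miR-155*-/- cells under LPS (-2.71, adjusted p = 0.0101) and rose there with IL-10 (2.68, adjusted p = 0.00441), and *Cd33* was higher under LPS (2.04, adjusted p = 0.0315). The summed level of the macrophage list was 15.75 and 15.77 in WT donor 1 and 15.76 to 15.83 elsewhere. In bulk RNA, fewer cells of a type and less RNA per cell cannot be told apart, and the part of other cells in the collagen values was not tested.

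**Figure D3:**
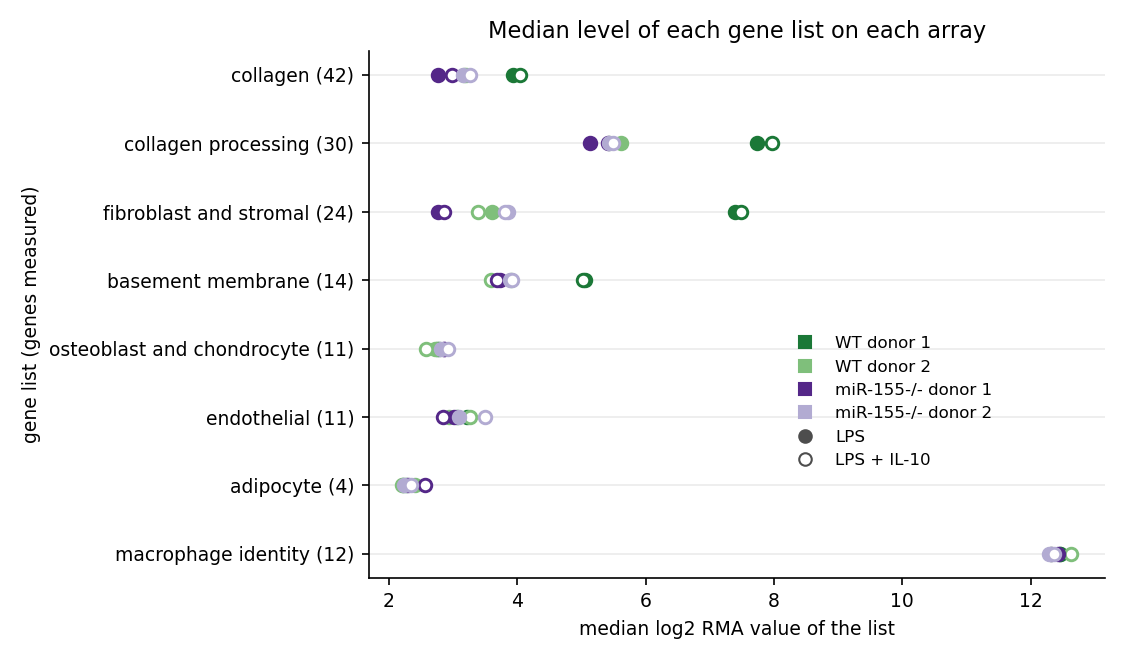
Median log2 RMA value (x axis) of the measured genes of each list on each array, with the number of genes in brackets. Points are coloured by donor, filled for LPS and open for LPS + IL-10. The fibroblast and stromal median is 7.39 and 7.49 in WT donor 1 and 2.77 to 3.85 elsewhere, while the macrophage median stays between 12.29 and 12.63.

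Basement membrane partners of type IV collagen were mixed. Of 14, 5 were higher in WT donor 1, beside 3.53% of all genes: *Nid1* (5.51), nidogen, which links laminin and collagen IV, the laminin chains *Lamb1* (3.85), *Lama4* (1.70) and *Lama1* (1.02), and *Lamb2* (0.90). *Lama1* and *Lamb2* lost the call with some arrays left out (adjusted p up to 0.217 and 0.216). *Lamc1*, the common laminin γ1 chain, lay at 8.34 to 9.63 over all arrays and was higher with IL-10 in *miR-155*-/- cells by 1.08 (adjusted p = 0.0258). *Agrn*, agrin, changed there by -1.21 (adjusted p = 0.00996), and each call ended with 4 of the 8 arrays left out in turn (adjusted p up to 0.168 and 0.0871). *Hspg2*, perlecan, lay at 5.28 to 6.12 and was not called.

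The choice of probe set mattered for 2 further collagens. *Col8a1*, a short-chain collagen of vessels and cornea, and *Col12a1*, which binds type I fibrils, were not called by their brightest probe sets. Another probe set of *Col8a1* was at 8.02 and 8.22 in WT donor 1 and at 1.45 to 3.13 on the other 6 arrays (difference between WT donors 5.83, adjusted p = 6.02e-05). Another of *Col12a1* was at 7.98 and 7.76 against 1.69 to 2.35 (5.85, adjusted p = 2.38e-05). Of the 40 probe sets that were not the brightest of their gene, 12 were called between WT donors, where 2.94% of all 45014 probe sets were. With the probe set that reached the highest value on any array, 15 collagens were called between WT donors. That rule took these probe sets of *Col8a1* and *Col12a1* through their values in WT donor 1, so it favours the difference between WT donors. Both of these probe sets were singled out after their values were seen.

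With LPS, 1 of the 42 collagens differed between genotypes and was lower in *miR-155*-/- cells, where 1.94% of all genes were called and 0.643% as lower. This was *Col18a1*, the type XVIII chain, whose upstream sequences are given above. Its LPS arrays read 9.75 and 10.40 for the WT donors and 8.05 and 8.67 for the *miR-155*-/- donors, with donor 1 given first. Its LPS + IL-10 arrays read 9.34 and 9.62 for WT and 7.54 and 7.51 for *miR-155*-/-. No *miR-155*-/- array reached a WT array, and on both treatments the donors of a genotype lay closer to each other than to the other genotype. The difference with LPS was -1.72 (3.29-fold, SE 0.27, adjusted p = 0.0368). Leaving out any 1 of the 8 arrays kept the direction (-2.03 to -1.41) but ended the call (adjusted p 0.0657 to 0.198). With LPS + IL-10 the difference was -1.95 (SE 0.27) and missed the threshold (adjusted p = 0.0870).

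A second probe set of *Col18a1*, on the same gene, read 9.62 and 10.24 for the WT donors under LPS and 6.68 and 7.35 for the *miR-155*-/- donors. Under LPS + IL-10 it read 9.32 and 9.73, and 6.82 and 7.00. The genotypes again did not overlap, and the gap was wider: -2.92 with LPS (adjusted p = 0.00803, where 1.46% of all probe sets were called) and -2.62 with LPS + IL-10 (adjusted p = 0.0451). Which *Col18a1* transcripts each probe set reads was not analysed here. *Col18a1* was unlike the 13 donor genes, since it was lower in WT donor 1 than in WT donor 2 by 0.46 (adjusted p = 0.346). Genotype held 81.9% of its variation and donor 3.7%.

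Of the 13 genes called between WT donors, 12 lay lower in *miR-155*-/- cells under LPS with all arrays, the median was -2.63, the standard errors ran from 0.38 to 2.44 and none passed the test. Without WT donor 1, 8 were lower and 5 higher, and the median was -0.09. Without WT donor 2, all 13 were lower and the median was -5.30. The 13 were chosen as higher in WT donor 1 than in WT donor 2. That choice favours higher differences without WT donor 1 and lower ones without WT donor 2. Both of these fits leave 1 WT(LPS) array, which is assumed to vary like the other groups, so their values are given as a description. *Col3a1* shows the span, at -4.39 (SE 2.44, adjusted p = 0.499) with all arrays, -1.19 without WT donor 1 and -7.59 without WT donor 2. *Col1a1* was at -2.63 (SE 2.09) with all arrays and at 0.03 without WT donor 1. The fits without a donor used the donor correlation of all 8 arrays.

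**Figure D4:**
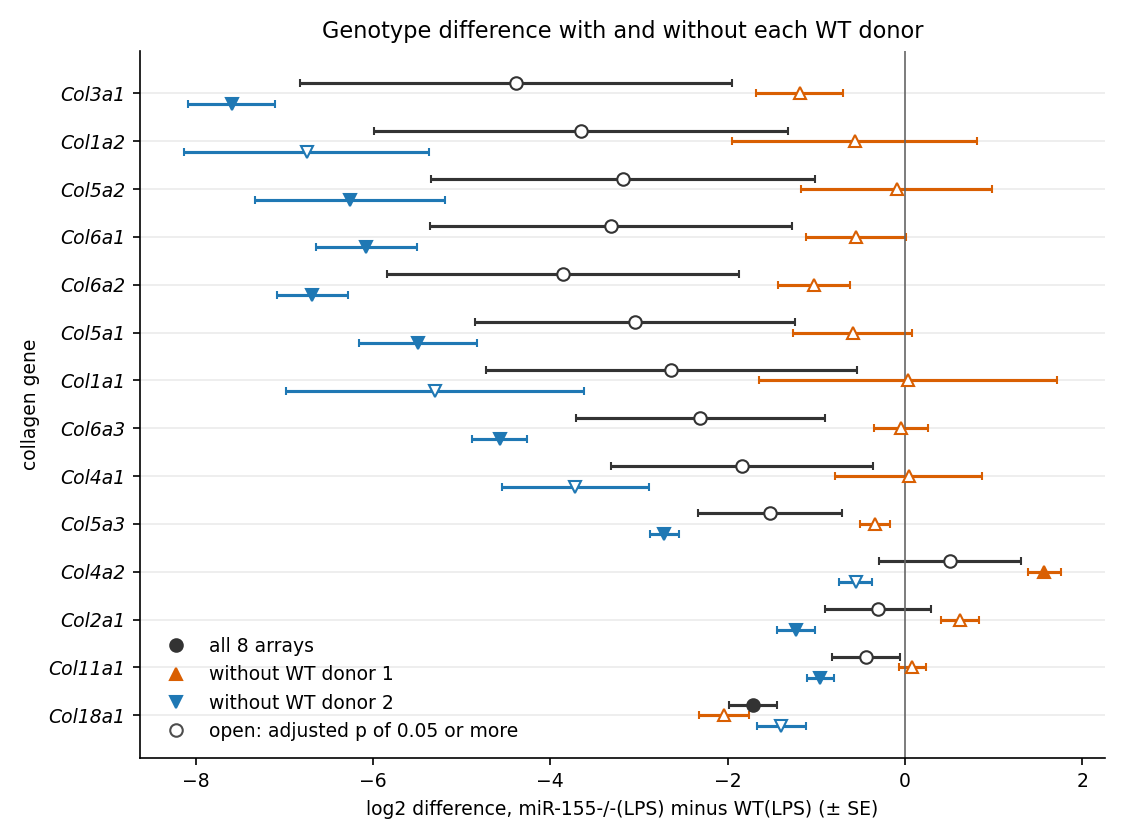
Log2 difference of *miR-155*-/-(LPS) from WT(LPS) (x axis, bars ± SE) for the 13 collagen genes called between WT donors and *Col18a1*, with all arrays (circles), without WT donor 1 (upward triangles) and without WT donor 2 (downward triangles). Filled symbols have an adjusted p under 0.05, which in the fits without a donor rests on 1 WT(LPS) array. The 13 genes have medians of -2.63, -0.09 and -5.30 in these fits, while *Col18a1* lies between -2.04 and -1.39 in all of them. The 13 were chosen by the difference between WT donors and *Col18a1* by its genotype difference with all arrays, which favours this contrast.

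Over the whole list, the median difference with LPS was -0.25 for the 42 collagens and 0.03 for all genes, and with LPS + IL-10 it was -0.27 and 0.03. Every *miR-155*-/- array lay below every WT array in 5 collagens (11.9%, against 3.40% of all genes) and above in 0 (against 4.88%). The 5 were *Col18a1*, *Col5a3*, *Col8a2*, *Col12a1* and *Col16a1*. Of these, *Col5a3*, *Col12a1* and *Col16a1* also had both arrays of WT donor 1 above the other 6, and *Col8a2* was at most 2.97 on any array. On the other probe set of *Col12a1* named above, the genotypes overlapped. There WT donor 2 with LPS + IL-10 read 1.69, against 1.83 to 2.30 on the *miR-155*-/- arrays. With LPS + IL-10, 0 of 42 collagens were called by limma (0.0935% of all genes were), and 3 had an unadjusted p under 0.05, *Col18a1*, *Col8a2* (-0.57) and *Col12a1* (-0.64), where 9.40% of all genes did.

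Without WT donor 1, *Col18a1* missed the threshold (-2.04, adjusted p = 0.0661). *Col4a2*, the type IV chain, was at 6.78 and 6.68 in *miR-155*-/-(LPS), between 7.29 in WT donor 1 and 5.16 in WT donor 2. With all arrays it differed by 0.51 (SE 0.80, adjusted p = 0.838), and without WT donor 1, against the single array of WT donor 2, by 1.57.

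IL-10 moved no collagen past the threshold in either genotype. In WT cells 0 of 42 were called by limma (0.0440% of all genes were) and 3 had an unadjusted p under 0.05 (9.25% of all genes did), namely *Col4a5* (-0.66), *Col18a1* (-0.60) and *Col10a1* (0.28). In *miR-155*-/- cells 0 of 42 were called, where 3.50% of all genes were, and 5 had an unadjusted p under 0.05 (19.7% of all genes did). These were *Col27a1*, *Col18a1*, *Col4a5*, *Col7a1* and *Col4a2*. The median change was -0.03 in WT and -0.05 in *miR-155*-/- cells. In WT donor 1, the 13 donor genes changed with IL-10 by -0.53 to 0.23. The donor test fits IL-10 as a term and favours genes whose donor difference agrees between both treatments. A change with IL-10 shared by both WT donors does not count against a gene. The 13 were thus chosen in part by how alike the IL-10 changes of both WT donors were.

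*Col4a2*, a chain of the common type IV trimer, had the largest change with IL-10 among collagens. It went from 6.78 to 4.81 in *miR-155*-/- donor 1 and from 6.68 to 5.06 in donor 2, and from 7.29 to 7.25 and 5.16 to 4.76 in the WT donors. The *miR-155*-/- donors thus lay with WT donor 1 under LPS and with WT donor 2 under LPS + IL-10. The change in *miR-155*-/- cells was -1.79 (SE 0.70, adjusted p = 0.248). With the donor as a fixed block it was called (SE 0.17, adjusted p = 0.00394), where 3.49% of all probe sets were. *Col4a1*, which shares its promoter region, went from 3.02 to 2.84 and from 5.23 to 3.68 in the *miR-155*-/- donors (-0.87, adjusted p = 0.810). The *Col4a2* change differed between genotypes by -1.57 (SE 0.98, adjusted p = 0.611).

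*Col27a1*, a fibrillar collagen of cartilage, went the other way. On its brightest probe set the value with IL-10 was above that with LPS in all 4 donors, at 4.42 against 3.27 and 3.98 against 3.26 in *miR-155*-/- cells and at 4.36 against 4.17 and 3.84 against 3.53 in WT cells. The change in *miR-155*-/- cells was 0.93 (SE 0.23, adjusted p = 0.0892, and 0.0326 with the donor as a fixed block). These values lay near the array's median. The other probe set of *Col27a1* did not show the same in every donor, with 3.72 and 3.74 in *miR-155*-/- donor 1 and 4.36 and 4.19 in WT donor 1 (LPS first), and its change in *miR-155*-/- cells was 0.70 (adjusted p = 0.521). *Col4a5*, an X-linked chain of kidney and other basement membranes, was lower with IL-10 in all 4 donors (4.34 to 4.08, 4.69 to 3.63, 4.48 to 4.04 and 4.46 to 3.64) and was not called in either genotype. The brightest probe set of *Col18a1* read lower with IL-10 in all 4 donors too, by 0.41, 0.78, 0.51 and 1.15, without a call (adjusted p = 0.514 in WT and 0.129 in *miR-155*-/- cells). Its second probe set read higher with IL-10 in *miR-155*-/- donor 1 (6.82 against 6.68), and its change in *miR-155*-/- cells was -0.10 (adjusted p = 0.893). On the brightest probe sets, 6 collagens were lower with IL-10 in every donor (14.3%, against 13.0% of all genes) and 2 were higher (4.76%, against 11.6%).

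**Figure D5:**
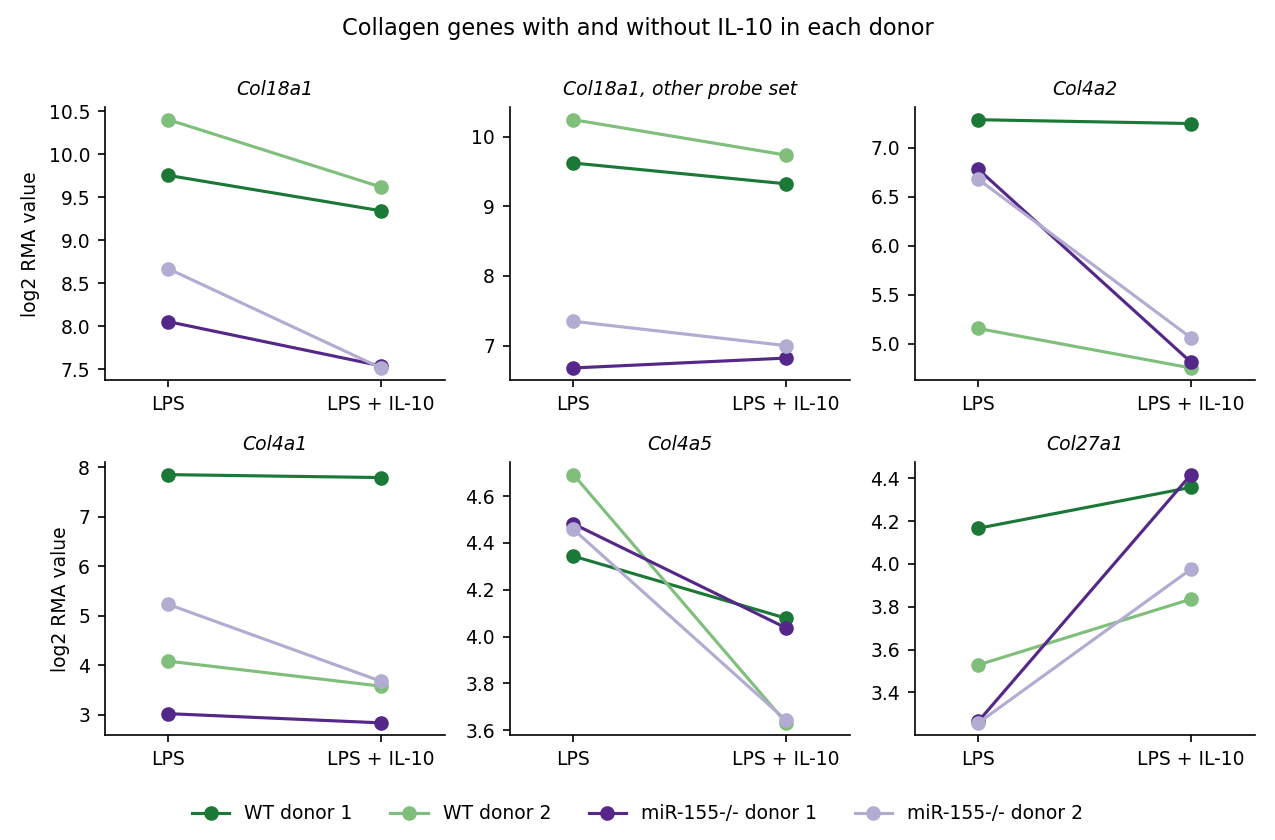
Log2 RMA values (y axes, each with its own range) with LPS and with LPS + IL-10 for the brightest and the other probe set of *Col18a1* and for *Col4a2*, *Col4a1*, *Col4a5* and *Col27a1*. Each line joins the 2 arrays of 1 donor. *Col18a1* separates the genotypes, *Col4a2* drops in both *miR-155*-/- donors (6.78 to 4.81 and 6.68 to 5.06), and the brightest probe set of *Col27a1* is higher with IL-10 in all 4.

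Whether the IL-10 effect depended on genotype was tested too, and 0 of 42 collagens were called by limma, where 0.0440% of all genes were called, and *Col7a1*, the anchoring fibril chain, was the single gene with an unadjusted p under 0.05 (10.6% of all genes were). All 8 values of *Col7a1* lay between 3.44 and 4.01.

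Genes that break down or bind collagen were read beside them. Between genotypes with LPS, 2 of 11 breakdown genes (*Mmp9* and *Mmp8*, a gelatinase and a collagenase, both lower in *miR-155*-/- cells) and 2 of 9 receptor genes were called, where 1.94% of all genes were. *Mmp9* differed by -3.06 (adjusted p = 0.00538) and was called with 7 of the 8 arrays left out in turn, the exception being WT(LPS) replicate 1 (adjusted p = 0.0507). *Mmp8* (-2.40, adjusted p = 0.0463) lost its call with each of the 8 arrays. *Mmp13* and *Mmp14*, which cleave fibrillar collagen, lay at 11.25 to 12.13 and 9.66 to 10.19 and were not called. The receptors were *Itga1*, the α1 chain of a collagen-binding integrin, which was lower (-4.17) and stayed called in 2 of 8 cases, and *Gp6*, a platelet collagen receptor, which was higher (2.24) and stayed called in 0 of 8. With IL-10 in *miR-155*-/- cells, *Itga1* rose from 2.86 to 6.07 and from 4.13 to 8.09 (3.58, adjusted p = 0.0259), *Gp6* fell by 1.99 (adjusted p = 0.0215) and *Timp2*, a metalloproteinase inhibitor, rose by 1.43 (adjusted p = 0.0400), where 3.50% of all genes were called, with calls kept in 1, 4 and 2 of 8 cases. *Lair1*, an inhibitory collagen receptor of leukocytes, lay at 9.86 to 11.22 and was not called. Between WT donors, *Timp3* (5.86), *Timp1* (4.26), *Mmp2* (4.12) and *Fap* (2.43) of the breakdown list and *Ddr2* (1.46) of the receptors were higher in donor 1, and *Gp6* lower (-0.84).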

How the data were processed

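Each of 8 samples was hybridised to an Affymetrix mouse array after NuGEN amplification. The authors summarised the scans by RMA with affy and deposited the result on the log2 scale. Their versions of affy and limma were not found among the sources used here. All 8 array columns were used, with 0 columns of no sample. Of 45101 probe sets, 64 controls and 23 for *Xist* or Y-linked genes were left out. Symbols came from the platform annotation (34958 probe sets with 1 symbol, 932 with several, 9211 with none) and were checked against RefSeq (GRCm38.p6), with 34754 found and 0 changed.

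Tests used R 4.3.3 and limma 3.58.1 with statmod 1.5.0. Group means were fitted with the donor as a random block (duplicateCorrelation 0.240), and donors within a genotype in a fit with fixed donors and IL-10 within genotype (2 residual degrees of freedom). P-values were adjusted by Benjamini-Hochberg over 45014 probe sets, and a gene was called at an adjusted p under 0.05. Arrays of the same genotype and replicate number were taken as 1 donor; their deviations from the group means correlated at r = 0.754 in WT and 0.230 in *miR-155*-/- arrays. The labels do not say whether the cultures of a donor were grown apart, so p-values measure the spread between these samples. In simulated data of this design, 46 of 50 probe sets changed by 2 log2 units were called between genotypes with LPS and 46 of 50 between WT donors. Of 50 changed by 1 log2 unit, 18 and 9 were called. The changed probe sets were drawn at random from all probe sets. The rates between genotypes thus do not hold for collagens that differ widely between donors, such as *Col3a1* (SE 2.44 with LPS).

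Named were the collagens called in any comparison, the 12 with the largest range of donor means among those reaching 8, and from each other list the genes called for IL-10 or genotype and up to 3 more by that range. Genes with a value given outside this rule were chosen after their values were seen. The members, lists and alternatives were chosen with earlier results of these data known. Alternatives changed the block, the arrays fitted, the level filter, the variance model, the array scaling and the choice of probe set, or left out single arrays and donors. Plots used Python 3.11.15 and matplotlib 3.10.9.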

Additional observations from a re-analysis of the deposited data

How the results depend on the processing

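The alternatives gave 141 values for the collagen counts and the share of variation. Of these, 108 were counts equal to the reported count or within 1.5 times of it. They include counts of 0 where 0 was reported. The share of variation was not judged by this rule. The counts for IL-10 in WT cells and for its dependence on genotype stayed at 0 in every setting run. For IL-10 in *miR-155*-/- cells, the fits with only the arrays of the groups compared, without WT donor 1 and without WT donor 2 gave identical values. They stand for 1 result. The count was 2 (*Col27a1*, *Col4a2*) there and with the donor as a fixed replicate block, and 1 (*Col18a1*) of 3 collagens with a mean of at least 6. Between genotypes with LPS it was 0 with only the arrays compared and without either *miR-155*-/- donor, 0 to 0 with 1 array left out, and 11 without WT donor 2 (4.59% of all probe sets were called there, against 1.46% with all arrays). With LPS + IL-10 it was 1 (*Col18a1*) with an intensity trend and robust hyperparameters, with the mean of all probe sets of a gene and with a mean of at least 6, and 12 without WT donor 2 (2.53% of all probe sets, against 0.0711%). A genotype fit without a donor leaves 1 array in an arm, which is assumed to vary like the other groups. Between WT donors it was 2 of 3 collagens with a mean of at least 6, which were *Col1a1*, *Col1a2* and *Col18a1*. *Col1a2* reached this mean (6.22) only through WT donor 1, as its other arrays lay at 2.76 to 6.14. The level filter thus favours the difference between WT donors. Between *miR-155*-/- donors it was 5 (*Col1a1*, *Col1a2*, *Col4a1*, *Col5a1*, *Col5a2*) with the trend and 0 to 1 with 1 array left out. The share of variation between donors was 63.9% over the 3 collagens with a mean of at least 6, which is the value of *Col1a2*. It was 50.2% with the mean of probe sets. The cause of these shifts was not tested, apart from the fewer collagens tested under the level filter and the donors left out.

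With no replicate block, the collagen counts for IL-10 and genotype were those of the random donor block, and so were the genotype counts (1 with LPS, 0 with LPS + IL-10) with the replicate number as a fixed block. Of 236 alternative values for single genes, 207 kept their side of the threshold and 29 lost the call. Fits on 4 or 6 arrays used the donor correlation of all 8. The probe set with the highest value on any array was an alternative added after the data were seen. Dim probe sets limit what can be read: 19 collagens never reached the median of an array.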
